A study of Nasonia vitripennis with 23 samples.

Results

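The widest contrast in foundress number was between females that laid eggs among 9 co-foundresses and females that laid alone, and it is described here across all genes measured in the head. The focal wasps were mated AsymC females of *Nasonia vitripennis*, a wild-type strain cured of *Wolbachia*. They had fed on a host and then on honey solution, and were given 3 hosts for 3 h before the heads were taken. In the 10-foundress group each focal female shared the hosts with 9 red-eyed STDR females, and in the single-foundress group there were no co-foundresses. Co-foundresses of the other strain could be told from the focal female by eye colour, and their heads were not sampled. Each library came from a pool of 12 heads of 1 group, so the pool was the replicate. The comparison used 15 of the 23 libraries of the series, 8 10-foundress and 7 single-foundress. The other libraries were 7 from the five-foundress group, which entered the fit to share its estimate of the spread, and single-foundress replicate 2, which the authors removed as an outlier. The 10-foundress libraries held between 29308446 and 51134453 reads counted on genes (median 34615440) and the single-foundress libraries between 27953555 and 44849128 (median 32164140). These depths overlapped (two-sided exact permutation test of the log2 total, p = 0.333). Whole heads hold the brain together with the antennae, compound eyes, mouthparts, muscle, fat body and glands, and in such samples fewer cells of a type cannot be told apart from less RNA per cell.

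In *Nasonia* a female controls the sex of each egg by fertilizing it or not, and she lays a larger share of sons when other foundresses use the same hosts. Cues to other females may reach her through odour, taste, touch and sight, by way of receptors on the antennae, mouthparts and eyes. The families followed below included sensory receptors, receptors and channels of neurons, enzymes that act on hormones, odours and toxins, and markers of other head tissues. Others were serine proteases, the respiratory chain, cell division, sex determination and DNA methylation. They were chosen with earlier results of these data known and limited to families with matching symbols.

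No gene passed the test across all genes between the 10-foundress and the single-foundress heads. Of 13599 genes tested with the quasi-likelihood test of edgeR, 0 (0%) passed an adjusted p of 0.05, and the smallest adjusted p was 0.212. Before adjustment 433 genes, or 3.18% of those tested, had a p below 0.05, fewer than the 680 that make up 0.05 of the genes. Of these, 229 (1.68%) had a higher level in the 10-foundress heads and 204 (1.5%) a lower one. DESeq2 also passed 0 genes after adjustment and gave 434 before it, and limma-voom passed 0 and gave 372. A characterised symbol was carried by 33 of the 433 genes, and by 967 of the 13599 tested. The other 400 are known here by a locus number alone. A total of 211 had a mean of at least 100 reads over the 15 libraries, 134 of them higher and 77 lower in the 10-foundress heads.

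**Figure D1:**
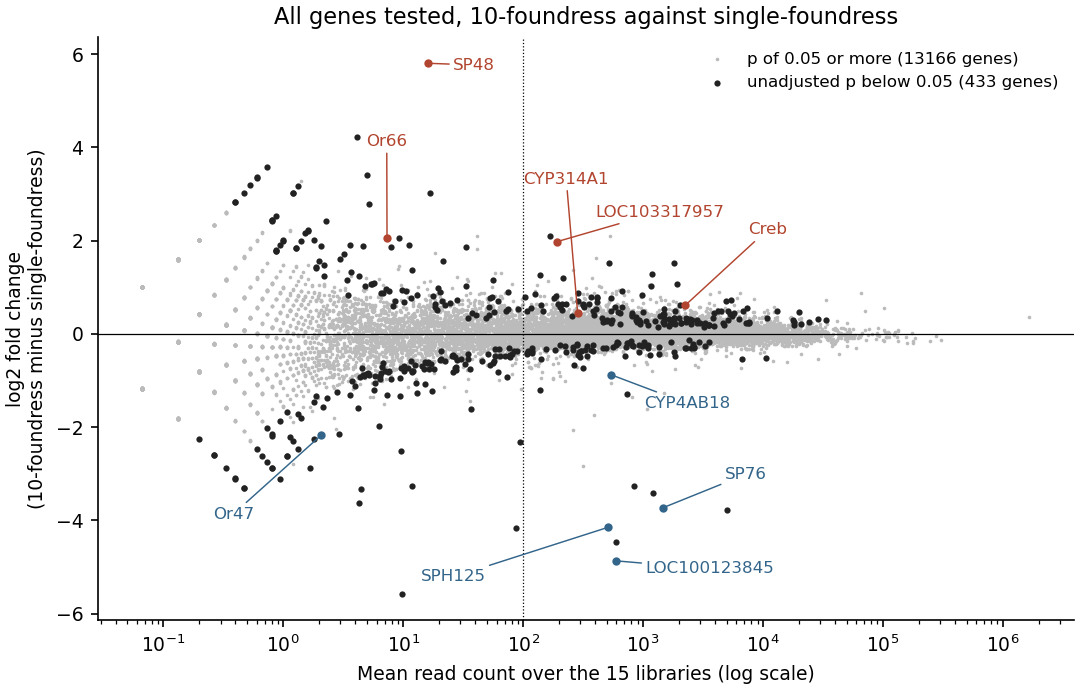
Each point is 1 of the 13599 genes, with its mean read count over the 15 libraries on a log axis and its log2 fold change, 10-foundress minus single-foundress. Black points are the 433 genes at an unadjusted p below 0.05, the dotted line marks 100 reads, and the 10 labelled genes are described in the text, 5 above 0 and 5 below.

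The differences were small as well as uncertain. A mean of 100 reads or more was reached by 9260 genes, and the absolute log2 fold change of these had a median of 0.11 and a 90th percentile of 0.31. Beyond 1.5-fold lay 166 genes, 118 higher and 48 lower in the 10-foundress heads, and beyond 2-fold lay 35, with 18 higher and 17 lower. The 95% confidence interval of the fold change stayed inside 1.5-fold for 6598 of the 9260 genes (71.3%) and inside 2-fold for 8636 (93.3%). The depth and the number of pools bounded most genes with at least 100 reads to changes under 2-fold, and smaller changes were often not detectable at this depth and number of pools.

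The gene with the smallest p among those with at least 100 reads was CYP314A1, a cytochrome P450. In *Drosophila* this enzyme, shade, converts ecdysone to the active moulting hormone 20-hydroxyecdysone. Its normalised level, as CPM (counts scaled to library size), lay between 7.68 and 10.5 in the 10-foundress heads (median 8.95) and between 5.87 and 7.77 in the single-foundress heads (median 6.45). The groups met at a single pair of libraries, as 7 of the 8 10-foundress values lay above every single-foundress value. The log2 fold change was 0.45 (SE 0.10, 95% interval 0.24 to 0.66), with an adjusted p of 0.577 by edgeR. A two-sided exact permutation test on this gene alone gave p = 0.000466, where the smallest value that 6435 splits allow is 0.000311, but the gene was picked for its rank and that p is not adjusted for the choice. In the order of foundress number the median levels were 6.45, 8.53 and 8.95 CPM in the single-, five- and 10-foundress groups. Single-foundress replicate 2, not in the comparison, had 13.0 CPM, and with it included the log2 fold change was 0.27 with an unadjusted edgeR p of 0.0632.

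Creb, the transcription factor that answers cyclic AMP and calcium signals and is needed for long-term memory in flies and mice, was also higher in the 10-foundress heads. It was among 8 genes with a characterised symbol, at least 100 reads and an unadjusted p below 0.05 that were outside the families and picked after their values were seen. Creb lay between 34.7 and 96.7 CPM in the 10-foundress heads (median 77.3) and between 25.9 and 62.3 in the single-foundress heads (median 49.3), so that the groups overlapped. Its log2 fold change was 0.61 (SE 0.19), the unadjusted p was 0.00341 and the adjusted p of edgeR was 0.952. The unadjusted p stayed below 0.05 with each of the 15 libraries left out in turn. With 5 surrogate variables in the fit the adjusted p of edgeR for Creb was 0.0162. Those variables were estimated from the same counts, and that fit raised the unadjusted calls from 433 to 1197. As Creb was picked for its low p, neither result is an independent test of it. The lowest 10-foundress value was that of replicate 17 and the lowest single-foundress value that of replicate 1.

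The other genes of that set acted in the cytoskeleton, in membrane traffic or in ways not known here, and their differences were smaller or less even. Tbca, a chaperone of tubulin folding, differed by 0.67 on the log2 scale (10-foundress median 11.6 CPM, single-foundress 7.63). Arpc2, a subunit of the Arp2/3 complex that branches actin, differed by 0.32 (68.2 and 50.6 CPM), and Daam, a formin that lengthens actin filaments, by 0.24 (42.3 and 35.7 CPM). Vps45, which guides vesicle fusion at endosomes, differed by 0.39 (39.8 and 30.3 CPM) and Herpud2, a membrane protein with a ubiquitin-like domain, by 0.24 (82.0 and 73.4 CPM). Crc differed by 0.46 (25.4 and 23.7 CPM). The groups overlapped in all of these genes, and between 6 and 9 of the 15 left-out libraries kept the unadjusted p below 0.05. SDR was the 1 gene of the set that was lower in the 10-foundress heads, by -0.39 on the log2 scale (5.45 and 6.88 CPM).

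Most other genes with the smallest p-values at 100 reads or more carried no name. LOC100115534 was the 1 gene of 13599 (0.00735%) whose groups did not overlap, at 146 to 189 CPM in the 10-foundress heads and 114 to 145 in the single-foundress heads, with a log2 fold change of 0.38 (SE 0.10). The nearest libraries of the 2 groups were 146 and 145 CPM, and they overlapped when genes with few reads were filtered out first or when all 23 libraries were used. LOC100680219 lay between 171 and 308 CPM in the 10-foundress heads (median 234) and between 127 and 195 in the single-foundress heads (median 169), a log2 fold change of 0.54 (SE 0.12, adjusted edgeR p 0.577). It was the 1 gene that was called after adjustment by all 3 alternatives that called several genes. Its adjusted p was 0.0387 in edgeR with all 23 libraries, 0.0439 in edgeR with surrogate variables and 0.0379 in limma with sample quality weights. The fit with all 23 libraries restored the library removed as an outlier, and 38 of its 39 calls were lower in the 10-foundress heads. An adjusted p depends on the other calls of its fit, so the 0.0387 is not separate support for this gene. LOC103317637, at 42.3 to 73.4 CPM against 34.1 to 53.7, and LOC100121344, at 104 to 175 CPM against 78.4 to 123, had log2 fold changes of 0.50 and 0.49 in the 10-foundress heads. Among the genes that were lower, LOC100679073 lay between 13.3 and 20.7 CPM in the 10-foundress heads and between 19.1 and 26.5 in the single-foundress heads, a log2 fold change of -0.49 (SE 0.11). LOC100122199 lay between 122 and 227 CPM against 164 and 274, with a log2 fold change of -0.53 (SE 0.13). In these genes 1 or a few libraries of each group fell inside the range of the other. With 5 surrogate variables 16 genes passed after adjustment, among them LOC100121344 at an adjusted edgeR p of 0.000898, LOC103317637 at 0.0171 and LOC100115534 at 0.0220, and LOC103317637 passed with quality weights as well (0.0379). The same limits hold for these values.

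The remaining genes with the smallest p-values at 100 reads or more also kept an unadjusted p below 0.05 with each library left out in turn. Higher in the 10-foundress heads were LOC103316770 (log2 fold change 0.79), LOC100679337 (0.72), LOC100121942 (0.49), LOC100121496 (0.43) and LOC100120589 (0.31). LOC100679337 lay between 88.4 and 249 CPM in the 10-foundress heads (median 181) and between 67.0 and 155 in the single-foundress heads (median 110). It passed after adjustment in edgeR with surrogate variables (0.00683) and in limma with quality weights (0.0406). It was picked for its low p in the same counts, so neither is an independent test of it. Lower in the 10-foundress heads were LOC100118011 (-0.55), LOC100124052 (-0.50), LOC100123782 (-0.38), LOC100122359 (-0.34) and LOC100115083, whose -1.21 became -0.43 without single-foundress replicate 6. The groups overlapped in all 10 of these genes.

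**Figure D2:**
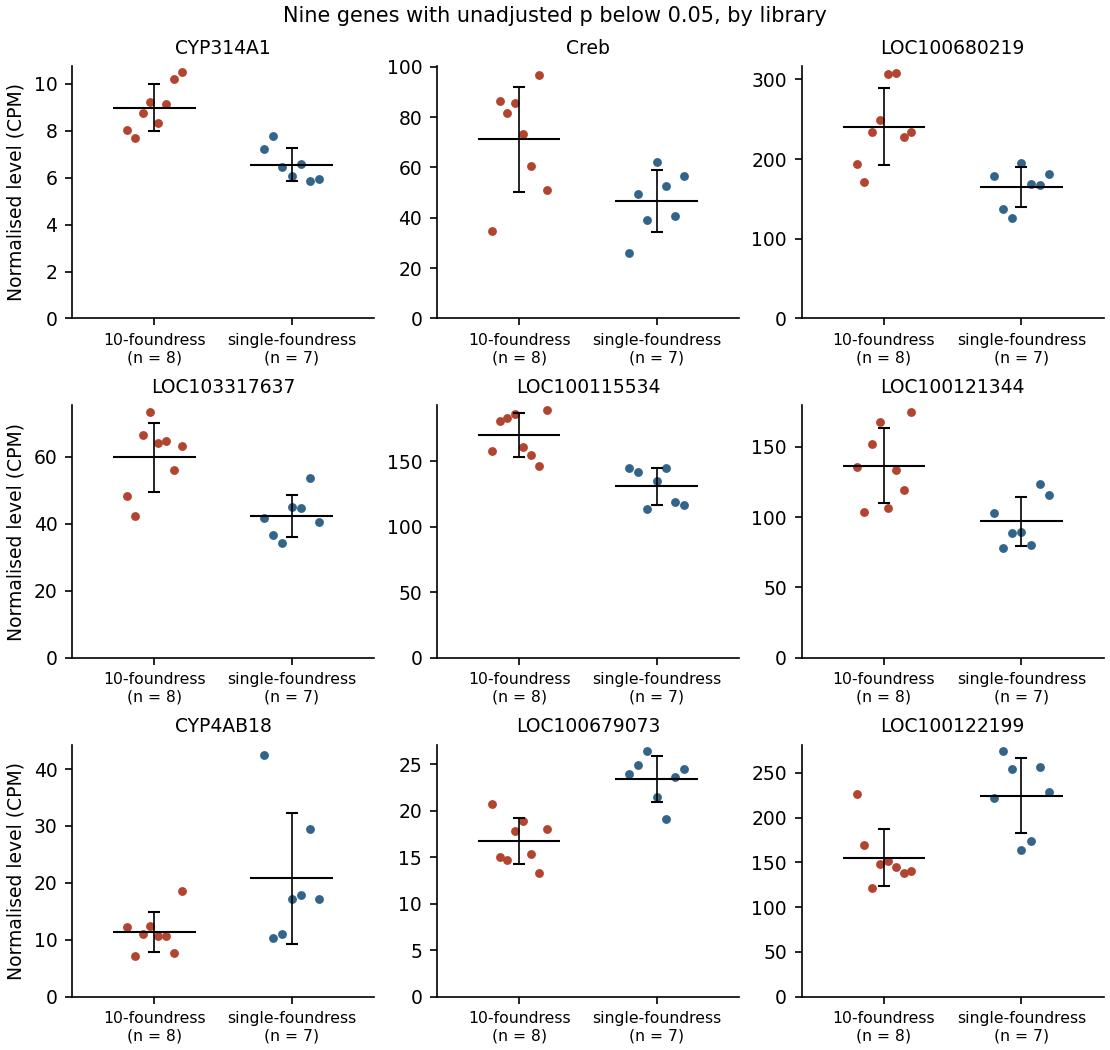
Points are the normalised levels (CPM) of 9 genes in the 8 10-foundress and 7 single-foundress libraries, with the mean and SD as horizontal line and bar and axes that start at 0. LOC100115534 is the gene whose groups did not overlap, with the 10-foundress values from 146 CPM and the single-foundress values up to 145 CPM.

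The smallest p-values of all belonged to genes with almost no reads. LOC103316497 had 18 reads over the 8 10-foundress libraries and 45 over the 7 single-foundress libraries, and its log2 fold change of -1.60 (SE 0.31) gave the smallest adjusted p of 0.212. LOC100122340 had 22 reads against 72, and LOC103318011 had 5 against 59. The last of these rested mostly on single-foundress replicates 3 and 6, at 0.904 and 0.614 CPM, with the other single-foundress libraries between 0 and 0.112 CPM.

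Among genes with at least 100 reads and an unadjusted p below 0.05, the largest differences in the negative direction were those of genes abundant in only some single-foundress pools. SP76 is a serine protease and SPH125 a serine protease homologue, a protein of the same fold that lacks the catalytic residues. SP76 lay between 0.388 and 19.4 CPM in the 10-foundress heads (median 3.89) and between 0.260 and 366 in the single-foundress heads (median 12.9), a log2 fold change of -3.73 (SE 1.22, unadjusted p 0.00554). SPH125 lay between 0 and 11.7 CPM against 0 and 141 (medians 0.345 and 4.57), a log2 fold change of -4.15 (unadjusted p 0.0111). In SP76 single-foundress replicates 5, 6 and 7 had 108, 366 and 120 CPM, whereas replicate 8 had 0.260 CPM, the lowest value of all 15 libraries. The same 3 pools were the highest single-foundress libraries for SPH125 and for 3 genes known by locus number, LOC103316197, LOC100117405 and LOC100123845.

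These 5 genes were also abundant in some pools of the five-foundress group. SP76 had 125, 33.7 and 138 CPM in five-foundress replicates 11, 13 and 15, against 0.510 to 8.44 CPM in the other 4 pools. Without single-foundress replicate 6 the log2 fold change was -2.65 in SP76 (unadjusted p 0.0307), -2.89 in SPH125 (0.0547), -2.75 in LOC103316197 (0.0527), -1.48 in LOC100117405 (0.0701) and -2.92 in LOC100123845 (0.0265). LOC100124007 had 286 CPM in single-foundress replicate 6 and 13.6 CPM in 10-foundress replicate 17, with every other library of the 2 groups under 1 CPM. Its log2 fold change of -4.47 turned to 2.50 without single-foundress replicate 6. The SP76 and SPH125 genes lie on the same chromosome of the reference, with 20 genes between them.

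In the positive direction, under the same limits, the largest difference was that of LOC103316607, with medians of 6.43 CPM in the 10-foundress heads and 0.887 in the single-foundress heads. The next were log2 fold changes of 1.98 in LOC103317957, 1.53 in LOC100120135, 1.52 in LOC100123107 and 1.29 in LOC100120413. LOC103317957 lay between 3.15 and 16.6 CPM in the 10-foundress heads (median 6.44) and between 0.195 and 3.75 in the single-foundress heads (median 1.82), with an SE of 0.61 and an unadjusted p of 0.00348. LOC100120135 lay between 33.7 and 135 CPM in the 10-foundress heads (median 50.6) and between 0.488 and 38.7 in the single-foundress heads (median 24.1), and 7 of the 8 10-foundress values lay above every single-foundress value. Both kept an unadjusted p below 0.05 with each of the 15 libraries left out in turn, whereas LOC100120413 did in 10, LOC100123107 in 8 and LOC103316607 in 6. In LOC103317957, LOC100120135 and LOC100120413 the highest library was 10-foundress replicate 18 and the lowest was single-foundress replicate 8.

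**Figure D3:**
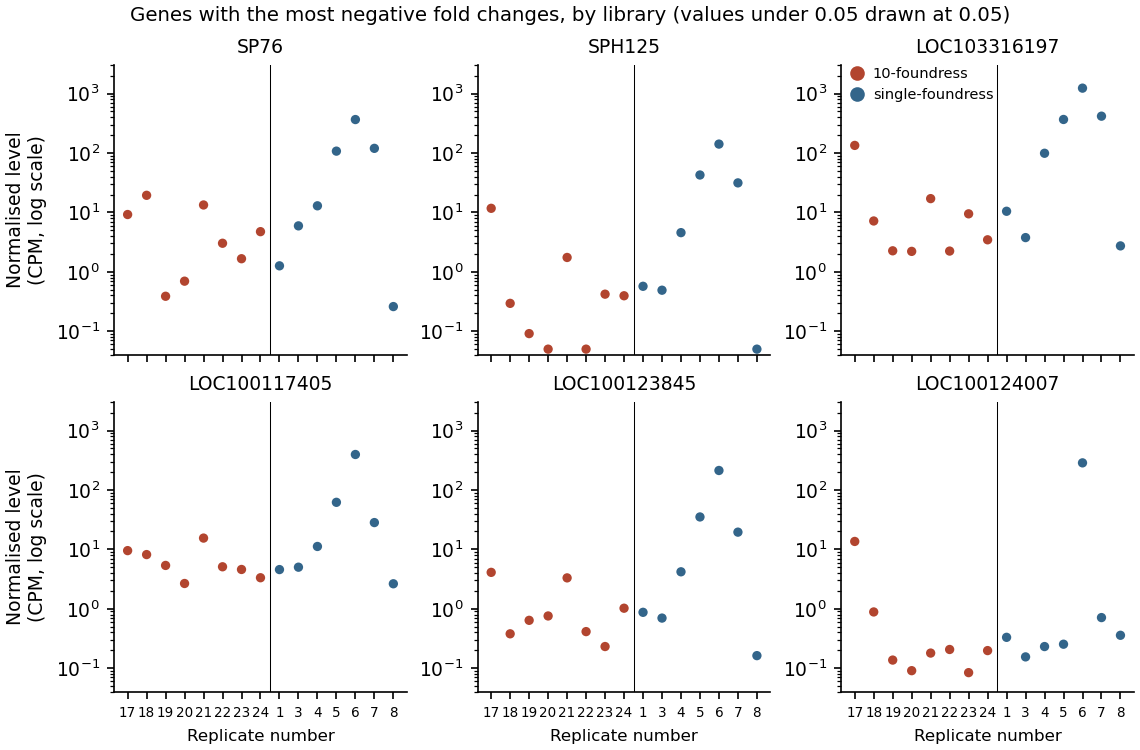
Normalised levels (CPM, log axis) of 6 genes with strongly negative fold changes in each library, 10-foundress replicates on the left and single-foundress replicates on the right of the line, with values under 0.05 CPM drawn at 0.05. In SP76 the high values are single-foundress replicates 5, 6 and 7, at 108, 366 and 120 CPM, and in LOC100124007 replicate 6 alone, at 286 CPM.

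The serine proteases and their homologues act in digestion, in the activation of immune cascades and in venom. Of 51 tested, 7 had an unadjusted p below 0.05 (13.7%, against 3.18% of all genes and 5.12% of those under 100 reads). A mean of at least 100 reads was reached by 18 of the 51, and 2 of the 7 were among these. Of all genes with that many reads 2.28% had an unadjusted p below 0.05. The 7 were 3 higher and 4 lower in the 10-foundress heads. The median log2 fold change of the family was -0.06, against 0.01 for all genes. Apart from SP76 and SPH125 these genes had few reads. SP48 had 240 reads in the 10-foundress libraries, 231 of them in replicate 20, and 3 in the single-foundress libraries. SP47, its neighbour with no gene between them, had 96 of its 116 10-foundress reads in the same replicate, and 23 in the single-foundress libraries. SP122 had 24 of 30 10-foundress reads in replicate 24, against 4 in the single-foundress libraries, SP17 had 14 against 28 and SPH90 had 76 against 102.

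**Figure D4:**
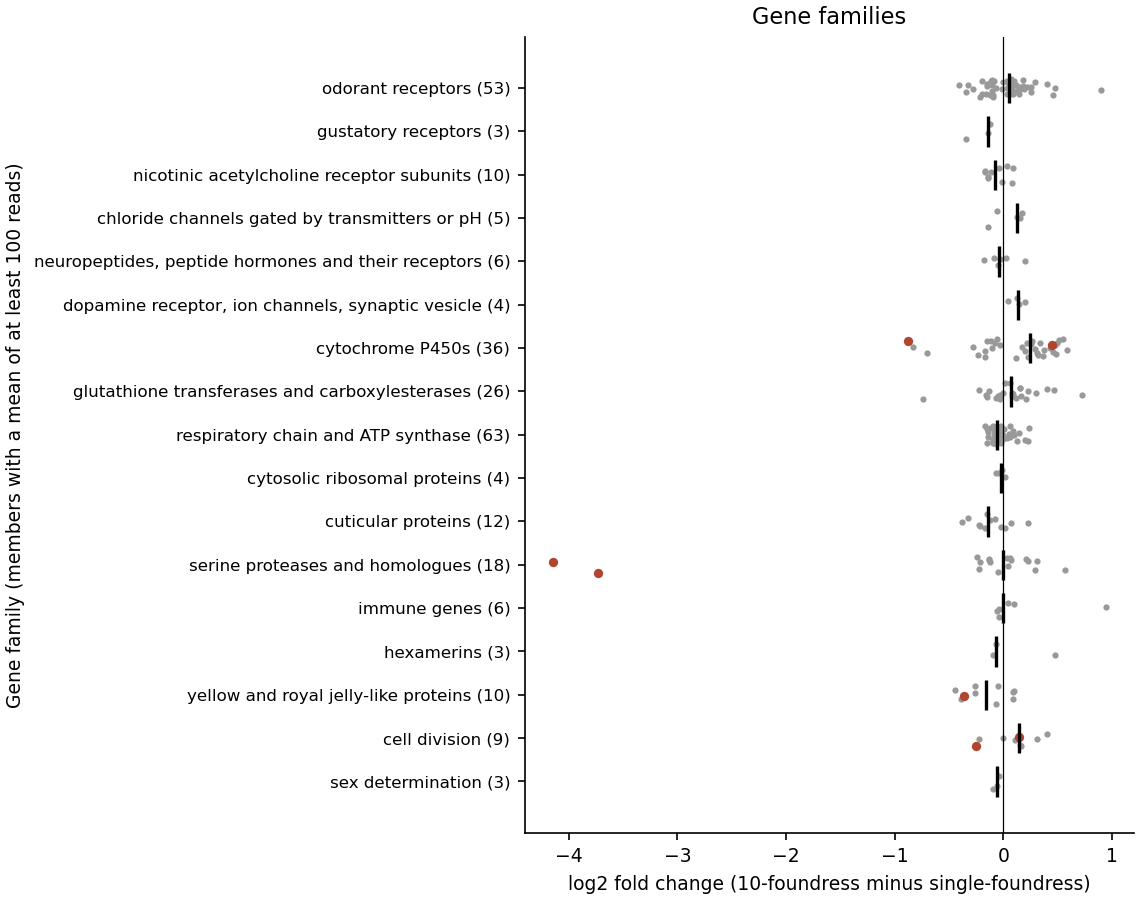
Points are the log2 fold changes, 10-foundress minus single-foundress, of family members with a mean of at least 100 reads (their number in parentheses), and black bars are family medians. Red points are members at an unadjusted p below 0.05, and the most negative are SPH125 at -4.15 and SP76 at -3.73.

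Odorant receptors, which pair with a common coreceptor in the sensory neurons of the antenna, were the largest family. Of 211 tested, 153 had a positive log2 fold change (72.5%, against 51.9% of all genes) and 57 a negative one. The family median was 0.14. However, 2 (0.948%, against 3.18% of all genes) had an unadjusted p below 0.05. Both had few reads, Or66 with 93 in the 10-foundress libraries against 17 in the single-foundress ones, and Or47 with 6 against 25. Among the 53 receptors with at least 100 reads the median was 0.05, and the highest was Or1, at 61.8 to 271 CPM in the 10-foundress heads and 14.3 to 128 in the single-foundress heads, a log2 fold change of 0.90 (SE 0.46, unadjusted p 0.0659). The family varied far more between pools than between groups. Its summed level lay between 380 and 969 CPM in the 10-foundress heads (median 599) and between 157 and 963 in the single-foundress heads (median 622). The number of receptors with a positive fold change was 98 of 211 without single-foundress replicate 8, the lowest library, and 187 of 210 without replicate 1, the highest of its group. The direction of the family therefore rested on which pools were included. OBP77, an odorant binding protein secreted around the sensory neurons, followed the same range, with 20.5 to 97.8 CPM against 10.3 to 55.7.

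Gustatory receptors, which sense taste on the mouthparts, antennae and legs, were scarce. Of 44 tested, 3 had a mean of at least 100 reads, and 20 were positive and 24 negative. Gr13 and Gr25 had an unadjusted p below 0.05, in opposite directions. They made up 4.55% of the family, against 3.18% of all genes and 5.12% of those under 100 reads. Gr25 had 149 reads in the 10-foundress and 185 in the single-foundress libraries, and Gr13 had 36 and 16. The long wavelength opsin Lop1, the photoreceptor pigment for green light, lay between 5579 and 12025 CPM in the 10-foundress heads and between 7068 and 11428 in the single-foundress heads, and its interval of -0.47 to 0.22 on the log2 scale spanned 0.

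In the 4 lists of genes for signalling between neurons that could be matched by symbol, 0 members had an unadjusted p below 0.05. The share over all genes was 3.18%. Genes known by locus number alone were not covered by these lists. The 12 subunits of nicotinic acetylcholine receptors, the main fast excitatory receptors of the insect brain, had a median log2 fold change of -0.08, and among the 10 with at least 100 reads the extremes were nAChRa8 at -0.17 (SE 0.19) and nAChRa4 at 0.09 (SE 0.37). In the 5 chloride channels gated by transmitters or pH the extremes were HisCl1, the histamine channel of the visual system, at -0.14 and pHCl at 0.18. Among 9 neuropeptides, peptide hormones and their receptors, Acpr, a receptor of the adipokinetic and corazonin type of peptide, was at -0.18 and Akhr, the receptor of adipokinetic hormone, was at 0.20. Para, the voltage-gated sodium channel, differed by 0.20 with an SE of 0.40, with medians of 60.2 CPM in the 10-foundress heads and 36.1 in the single-foundress heads. The signs of nAChRa4, Para and 1 of the genes listed as the dopamine receptor Dop2 turned when single libraries were left out.

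The cytochrome P450s oxidize hormones, odours and foreign compounds. Of 44 tested, 27 were positive (61.4%, against 51.9% of all genes) and 17 negative, with a median of 0.21. A mean of at least 100 reads was reached by 36 of the 44. An unadjusted p below 0.05 was found in 2 (4.55%, against 3.18% of all genes and 2.28% of those with at least 100 reads). They were CYP314A1 and, in the other direction, CYP4AB18, at 7.18 to 18.7 CPM in the 10-foundress heads (median 10.9) and 10.3 to 42.5 in the single-foundress heads (median 17.2). The log2 fold change of CYP4AB18 was -0.88 (SE 0.28), and -0.61 without single-foundress replicate 1, its highest library. The family median was 0.02 without 10-foundress replicate 23, in which the summed level was highest. CYP4G43 and CYP4G44 belong to the subfamily that makes the hydrocarbons of the cuticle in *Drosophila*, and their log2 fold changes of -0.70 and -0.83 had SEs of 0.72 and 0.70. Glutathione transferases and carboxylesterases, which also clear foreign compounds, had 0 of 29 members at an unadjusted p below 0.05, against 3.18% of all genes. The carboxylesterase CCE-B6 lay between 563 and 1924 CPM in the 10-foundress heads and between 68.4 and 930 in the single-foundress heads, a log2 fold change of 0.72 with an SE of 0.43. At the other extreme CCE-A4 had a log2 fold change of -0.74 (SE 0.68), which became 0.34 without single-foundress replicate 6.

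Subunits of the respiratory chain and the ATP synthase, which supply energy in the mitochondria, leaned the other way without a gene passing. Of 68 tested, 54 were negative and 14 positive (20.6%, against 51.9% of all genes), and the median log2 fold change was -0.06. An unadjusted p below 0.05 was reached by 0 of them, against 3.18% of all genes. The interval stayed inside 1.5-fold for 62 of the 63 with at least 100 reads. The extremes were Ndufb10 at -0.17 and 1 of the genes listed as Cox7c at 0.24. These genes moved together between pools, as their summed level was highest in 10-foundress replicate 17 at 30251 CPM and lowest in 10-foundress replicate 18 at 15945 CPM. Without replicate 18 the split was 28 negative and 40 positive, and without single-foundress replicate 7 it was 33 and 35. The cytosolic ribosomal proteins Rpl6 and Rpl41 were at 0.01 and -0.07, and the sign of Rpl6 turned under DESeq2 size factors and upper-quartile factors.

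Markers of the other head tissues differed between pools more than between groups. Of 45 cuticular proteins 4 (8.89%, against 3.18% of all genes and 5.12% of those under 100 reads) had an unadjusted p below 0.05, CPR1 and CPR9 higher and CPR10 and apd-3 lower in the 10-foundress heads. All but apd-3 had under 25 reads in each group, with CPR10 at 0 reads in the 10-foundress libraries against 5, and apd-3 lay between 1.30 and 2.74 CPM against 1.92 and 3.44. The summed level of the cuticular proteins was 384 to 1293 CPM in the 10-foundress heads and 465 to 1052 in the single-foundress heads. The tropomyosins Tm1 and Tm2, which regulate contraction in muscle, were at -0.14 and -0.22. Without 10-foundress replicate 17 Tm1 was at -0.34 and Tm2 at -0.43 (unadjusted p 0.0505 in Tm2). The lowest unadjusted edgeR p of Tm1 with a library left out was 0.0430. The fat body storage proteins Hex70b and Hex83 were at 0.47 and -0.10. Among 6 immune genes, 0 had an unadjusted p below 0.05, against 3.18% of all genes. The most variable of the 6 was the antimicrobial peptide gene Def1-1. Its level was 37.8 to 2559 CPM in the 10-foundress heads, where replicate 24 was highest. In the single-foundress heads it was 12.1 to 2786 CPM, with replicate 6 highest. ppo1, a prophenoloxidase of the melanization response, lay between 3.61 and 61.8 CPM against 4.24 and 29.4. The summed level of each tissue list overlapped between the groups, and the part of tissue differences in the gene results was not tested.

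The yellow and royal jelly-like genes include enzymes of pigment formation and secreted proteins. Of 16 tested, 2 had an unadjusted p below 0.05 (12.5%, against 3.18% of all genes and 5.12% of those under 100 reads). A mean of at least 100 reads was reached by 10 of the 16, and 1 of the 2 was among these. Of all genes with that many reads the share was 2.28%. Y-x1c lay between 6.61 and 14.8 CPM in the 10-foundress heads and between 9.45 and 17.6 in the single-foundress heads, a log2 fold change of -0.36, and Y-g2b had 0 reads against 4. Among 12 genes of cell division 2 (16.7%, against 3.18% of all genes) had an unadjusted p below 0.05. They were the cohesin subunit Smc3 at 0.15 and the kinase Melk at -0.25, with unadjusted edgeR p-values of 0.0458 and 0.0496. Both had at least 100 reads, and of all genes with that many 2.28% were below 0.05. Of 9 microRNA precursors tested, 1 (11.1%) had an unadjusted p below 0.05, against 3.18% of all genes and 5.12% of those under 100 reads. This was Mir100 at -0.56 (unadjusted edgeR p 0.0341), with 194 reads against 229 in these poly(A)-selected libraries. The oocyte gene *oskar*, which organizes germ plasm, was at 8.27 to 14.3 CPM against 9.95 to 16.0.

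The genes listed for sex determination and DNA methylation were measured in the heads of the egg-laying females, not in their offspring. Of these 5 genes, 0 had an unadjusted p below 0.05. Over all genes the share was 3.18%. Tra, the splicing regulator whose maternal supply starts female development, lay between 1002 and 2272 CPM in the 10-foundress heads and between 1229 and 2171 in the single-foundress heads, a log2 fold change of -0.04 (95% interval -0.42 to 0.33). Dsx, the transcription factor at the end of that cascade, was at -0.09 (-0.33 to 0.14) and Fru, its counterpart in the nervous system, at -0.06 (SE 0.13). Dnmt1a, a maintenance DNA methyltransferase, was at 0.10 (-0.21 to 0.40) and Mbd, a protein that binds methylated DNA, at -0.02 (-0.25 to 0.20). All of these intervals spanned 0.

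Which genes fell below the unadjusted threshold depended on single pools. With each of the 15 libraries left out in turn, the number lay between 301, without 10-foundress replicate 23, and 1014, without 10-foundress replicate 17. Leaving out 10-foundress replicate 24 gave 931 genes, and leaving out replicate 5 or 6 of the single-foundress group gave 705 or 656. Among the 134 genes with at least 100 reads that were higher in the 10-foundress heads, replicate 17 was the lowest 10-foundress library in 67 and replicate 24 in 29. Single-foundress replicate 5 was the highest library of its group in 57 of them and replicate 6 in 30. Of the 433 genes, 120 stayed below 0.05 in all 15 of these fits, 59 higher and 61 lower in the 10-foundress heads, and 60 of the 120 had at least 100 reads. After adjustment 0 genes passed in 14 of the 15 fits, and LOC103316497 alone passed without single-foundress replicate 3, at an adjusted edgeR p of 0.0308.

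**Figure D5:**
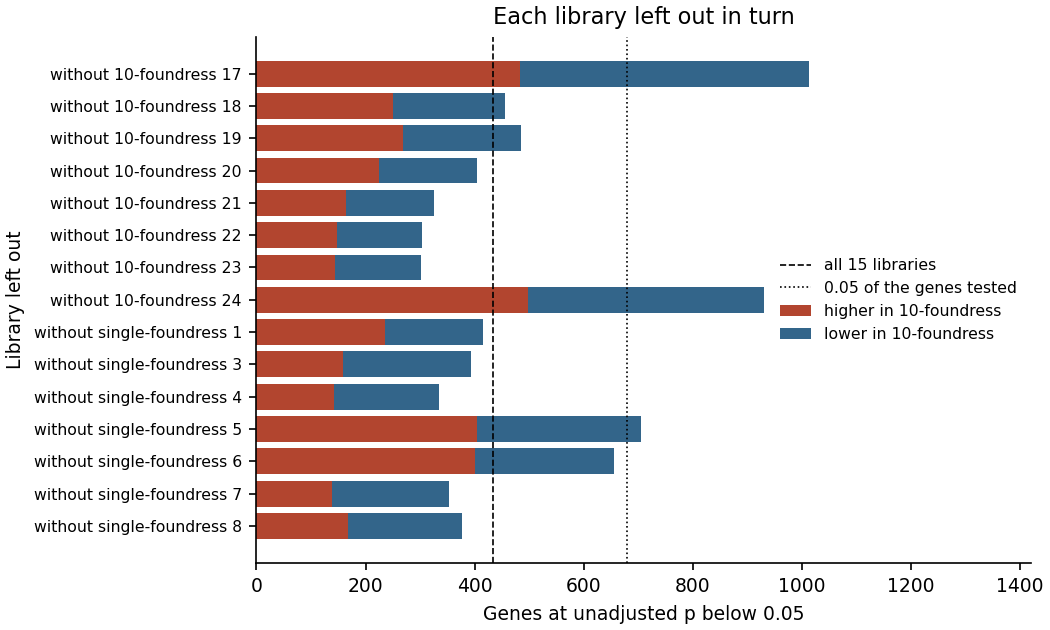
Bars give the number of genes at an unadjusted p below 0.05 when 1 library is left out, in red those higher and in blue those lower in the 10-foundress heads. The dashed line is the 433 genes of the full comparison and the dotted line is 680, which is 0.05 of the genes tested, and the longest bars, 1014 and 931, are those without 10-foundress replicates 17 and 24.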

How the data were processed

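RNA was extracted from pools of 12 female heads and sequenced as poly(A)-selected, paired-end libraries. The authors kept reads with a mean Phred score of at least 30, trimmed adapters with cutadapt (v. 1.8.3), aligned reads to the Nvit 2.1 assembly with TopHat2 (v. 2.0.14) and obtained counts per gene with HTSeq (v. 6.0.1, as stated) in union mode. The deposited counts are whole numbers without normalization. Whether counting used the strand is not given in the sources used here, so that overlapping genes and near-identical copies are uncertain. The table holds 14131 genes, of which 13599 had at least 1 read in the 22 libraries fitted, and 74 symbols are shared by several genes.

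The main test ran in edgeR 4.0.16 under R 4.3.3, with TMM factors and the quasi-likelihood test with all 3 groups in one fit, a contrast of 10-foundress minus single-foundress and p-values adjusted by the Benjamini-Hochberg method across the 13599 genes. Each standard error (SE) was derived from the F statistic and the log2 fold change. The main edgeR fit, DESeq2 and both forms of limma-voom were also run on simulated counts, but the other alternatives were not. Alternatives were DESeq2 1.42.0, limma 3.58.1 (voom, with and without sample quality weights), 5 surrogate variables from sva 3.50.0, edgeR's older quasi-likelihood method, 2 other normalizations, 2 filters on low counts, the 15 libraries alone, all 23 libraries and each library left out in turn. Replicate numbers differ between groups and pair no samples, and no label gives a pool's set-up day. That pools came from separate females follows from the study's methods, and p-values measure the spread between pools.

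Genes named were the 10 higher and 10 lower with the smallest p at a mean of at least 100 reads, the 5 largest changes each way among those at an unadjusted p below 0.05, the 3 smallest p at any count, CYP314A1, and from each family the members at an unadjusted p below 0.05 or else the extremes. The other genes were chosen after their values were seen. The families and this rule were chosen with earlier results of these data known. Families were matched by symbol, since the files pair few genes with names, and planned families without a match were left out. The neighbouring genes come from RefSeq's table for the Nvit_psr_1.1 assembly, which is not the build of the counts, so no coordinates are given.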

Additional observations from a re-analysis of the deposited data

Results flagged for a closer look

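The spread within a group was set by 1 library in several of the named genes. In 29 of 168 groups of 8 or 7 libraries the gap from the extreme library to its neighbour exceeded Dixon's 95% limit, as a part of the range. That limit assumes normally distributed values. It was applied here to CPM without a log scale, in genes mostly picked for their values, so the 29 cannot be set against a chance rate. In single-foundress replicate 6 the gap made up 0.849 of the range in LOC100117405, 0.835 in LOC100123845, 0.877 in LOC100115083, 0.673 in SP76, 0.698 in SPH125, 0.664 in LOC103316197, 0.998 in LOC100124007, 0.661 in ppo1, 0.841 in CCE-A4 and 0.847 in Def1-1. In 10-foundress replicate 17 it made up 0.539 in LOC100122199, 0.618 in LOC100115083, 0.851 in SPH125, 0.887 in LOC103316197, 0.941 in LOC100124007, 0.627 in SP17 and 0.665 in Tm1. In 10-foundress replicate 24 it made up 0.536 in CYP4AB18, 0.529 in SDR, 0.920 in SP122 and 0.742 in Def1-1, and in 10-foundress replicate 20 it made up 0.967 in SP48 and 0.951 in SP47. The remaining cases were SPH90 in 10-foundress replicate 18 (0.692), LOC100123107 in 10-foundress replicate 23 (0.623) and single-foundress replicate 3 (0.573), LOC103316607 in single-foundress replicate 1 (0.659), and SP48 (0.603) and SP47 (0.645) in single-foundress replicate 8. In each of these the library was the highest of its group.

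Single-foundress replicate 2, which the comparison leaves out, had 13.0 CPM of CYP314A1, above the 7.68 to 10.5 CPM of the 10-foundress heads and the 5.87 to 7.77 CPM of the other single-foundress heads.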

How the results depend on the processing

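No paired analysis was possible because the replicate numbers of the groups do not overlap. After adjustment the count of 0 genes held in DESeq2, the earlier quasi-likelihood form, DESeq2 size factors, upper-quartile factors, both low-count filters, the 15 libraries alone and limma-voom. It was 39 with all 23 libraries (38 lower in the 10-foundress heads), 3 in limma-voom with sample quality weights and 16 with 5 surrogate variables, and between 0 and 1 with each library left out in turn. The unadjusted count of 433 became 207 with a mean of at least 100 reads, 745 with all 23 libraries, 1917 with sample quality weights and 1197 with surrogate variables, and 301 to 1014 with libraries left out. The 1 gene without overlap became 0 under filterByExpr, a mean of at least 100 reads and all 23 libraries, and 0 to 6 with libraries left out. CYP314A1 kept its direction and its side of the threshold in all 26 alternatives, between 0.41 and 0.48 with libraries left out, and its adjusted p was lowest at 0.0716 in DESeq2 and 0.0804 with surrogate variables. The split of unadjusted calls, 229 higher and 204 lower, turned to 194 and 224 with upper-quartile factors, 211 and 219 with DESeq2 size factors, 166 and 206 in limma-voom and 215 and 530 with all 23 libraries. It also turned when any of 7 single libraries was left out, and the cause was not tested.

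Signs turned in 17 of the 85 named genes, 3 of which (LOC100124007, SP47 and SP122) had an unadjusted p below 0.05, and the causes were not tested. With surrogate variables the log2 fold change was 2.71 in LOC100124007, 1.24 in Def1-1, 0.22 in CCE-A4, 0.14 in Tra, 0.10 in Mbd, 0.10 in Hex83, 0.075 in Rpl41, 0.026 in HisCl1, -0.0089 in Dnmt1a and -0.14 in nAChRa4. In DESeq2 it was -0.40 in SP47, 1.78 in Def1-1 and -0.00066 in Rpl6. Rpl6 was at -0.00066 with DESeq2 size factors, -0.011 with upper-quartile factors, -0.0055 with a mean of at least 100 reads, -0.0035 in limma-voom and -0.10 with quality weights. With quality weights it was -0.070 in SP122, -0.13 in ppo1, -0.020 in Hex70b, 0.046 in HisCl1, 0.027 in Tra and 0.055 in Mbd, and Def1-1 was at 0.36 in limma-voom. With all 23 libraries it was -0.073 in Dnmt1a, 0.0091 in Rpl41, 0.011 in Tra and -0.0090 in nAChRa4. With libraries left out it ranged from -7.27 to 2.50 in LOC100124007, -1.10 to 0.34 in CCE-A4, -1.37 to 1.87 in Def1-1, -0.34 to 2.65 in SP47, -0.11 to 0.32 in nAChRa4, -0.046 to 0.077 in Rpl6, -0.032 to 0.13 in Dop2, -0.17 to 0.065 in Rpl41, -0.16 to 0.043 in Tra, -0.088 to 0.026 in Mbd, -0.29 to 0.0034 in Hex83 and -0.015 to 0.49 in Para. Genes under about 25 reads a group give no firm fold change at this depth.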
